A study of Mus musculus with 9 samples.

Results

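The calcineurin, NFAT and calpain genes were followed in mouse gastrocnemius muscle under 3 hormonal states. They were 9 genes chosen by symbol: the calcineurin subunits Ppp3ca, Ppp3cb and Ppp3r1, the calcineurin regulator Rcan1, the transcription factors Nfatc1 and Nfatc3, and the proteases Capn1, Capn2 and Capn3. All probe sets annotated to them were taken, where a probe set is the group of short oligonucleotides with which an Affymetrix array reads a transcript. This gave 25 of the 45037 probe sets other than controls, of which 24 were listed to 1 gene and 1, shared by Ppp3r1 and Wdr92, to several. For tests per gene, the probe set with the highest average signal stood for its gene, so that the members were 9 of 18193 genes.

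The gastrocnemius, a calf muscle, was taken from CD-1 mice, which are outbred, as young adults 14 days after surgery. Testosterone mice had been castrated and given a 2.5 mg testosterone pellet made for 60-day release. Castration mice had been castrated and given a placebo pellet, and Sham mice had undergone sham surgery and also carried a placebo pellet. Every animal thus had an operation and a pellet, and the Testosterone and Castration groups shared the loss of the testes. RNA of 3 animals was pooled for every array and 3 arrays were run per group, so an SD below is the spread between pools and 3 arrays per group limit the precision. Whole muscle was measured, so fewer cells of a type and less RNA per cell cannot be told apart.

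Calcineurin is a phosphatase switched on by calcium and calmodulin, built from a catalytic A subunit (Ppp3ca or Ppp3cb) and a regulatory B subunit (Ppp3r1). It removes phosphates from NFAT factors, which then enter the nucleus, and in skeletal muscle this route is known for its part in the slow fibre programme. Calpains are calcium-activated cysteine proteases: Capn1 and Capn2 are found in most tissues, whereas Capn3 is the muscle calpain that binds titin and is mutated in a limb-girdle muscular dystrophy.

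Expression is given as log2 values, in which a step of 1 is a doubling. The deposited values lay between 2.22 and 14.24, with array medians of 3.15 to 3.26. The 10 skeletal muscle markers were all measured, and their mean level per array was 13.46 to 13.51 in Testosterone, 13.42 to 13.46 in Castration and 13.43 to 13.49 in Sham, with Acta1, skeletal actin, at 14.17 to 14.24 on all 9 arrays. The arrays Testosterone 2 and Sham 2 stood apart, with mean correlations with the other arrays of 0.981 and 0.972, against 0.989 to 0.991 for the remaining 7. Testosterone 2 was the lowest array of its group for 5 of the 9 members and for 37% of all genes, and Sham 2 for 7 of the 9 members and 45.9% of all genes. Among the 4049 genes with a mean log2 above 6, Sham 2 was the lowest Sham array in 81.2%. These were also the highest arrays of their groups for macrophage and lymphocyte markers, whose 14 measured members averaged 4.06 to 5.55 in Testosterone, 4.10 to 4.20 in Castration and 4.14 to 4.83 in Sham; they were highest for adipocyte markers too. Sham 2 also had the highest epidermal score of all arrays (0.76) and the lowest tendon (−0.79) and fibroblast (−0.62) scores, a score being an array's mean log2 deviation from the gene means. The part of these cells in the results was not tested. Results are therefore also given on the 7 arrays left without these 2.

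Of the 9 genes, the catalytic subunit Ppp3ca was the one whose Castration arrays lay wholly above the arrays of both other groups. Its level was 1.27-fold that of Sham after castration, and with testosterone it was 86.6% of the Castration level. The intervals of the other 8 genes held 0 in every comparison. No member passed limma's test at an adjusted p of 0.05 in any comparison or in the F test over the 3 groups, and neither did any other gene or probe set (0% called in each). At an unadjusted p under 0.05 only Ppp3ca counted among the members with all 9 arrays, in castration against sham (4.72% of all genes) and in testosterone against castration (3.48%). In testosterone against sham the members counted 0, and all genes 4.35%.

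**Figure D1:**
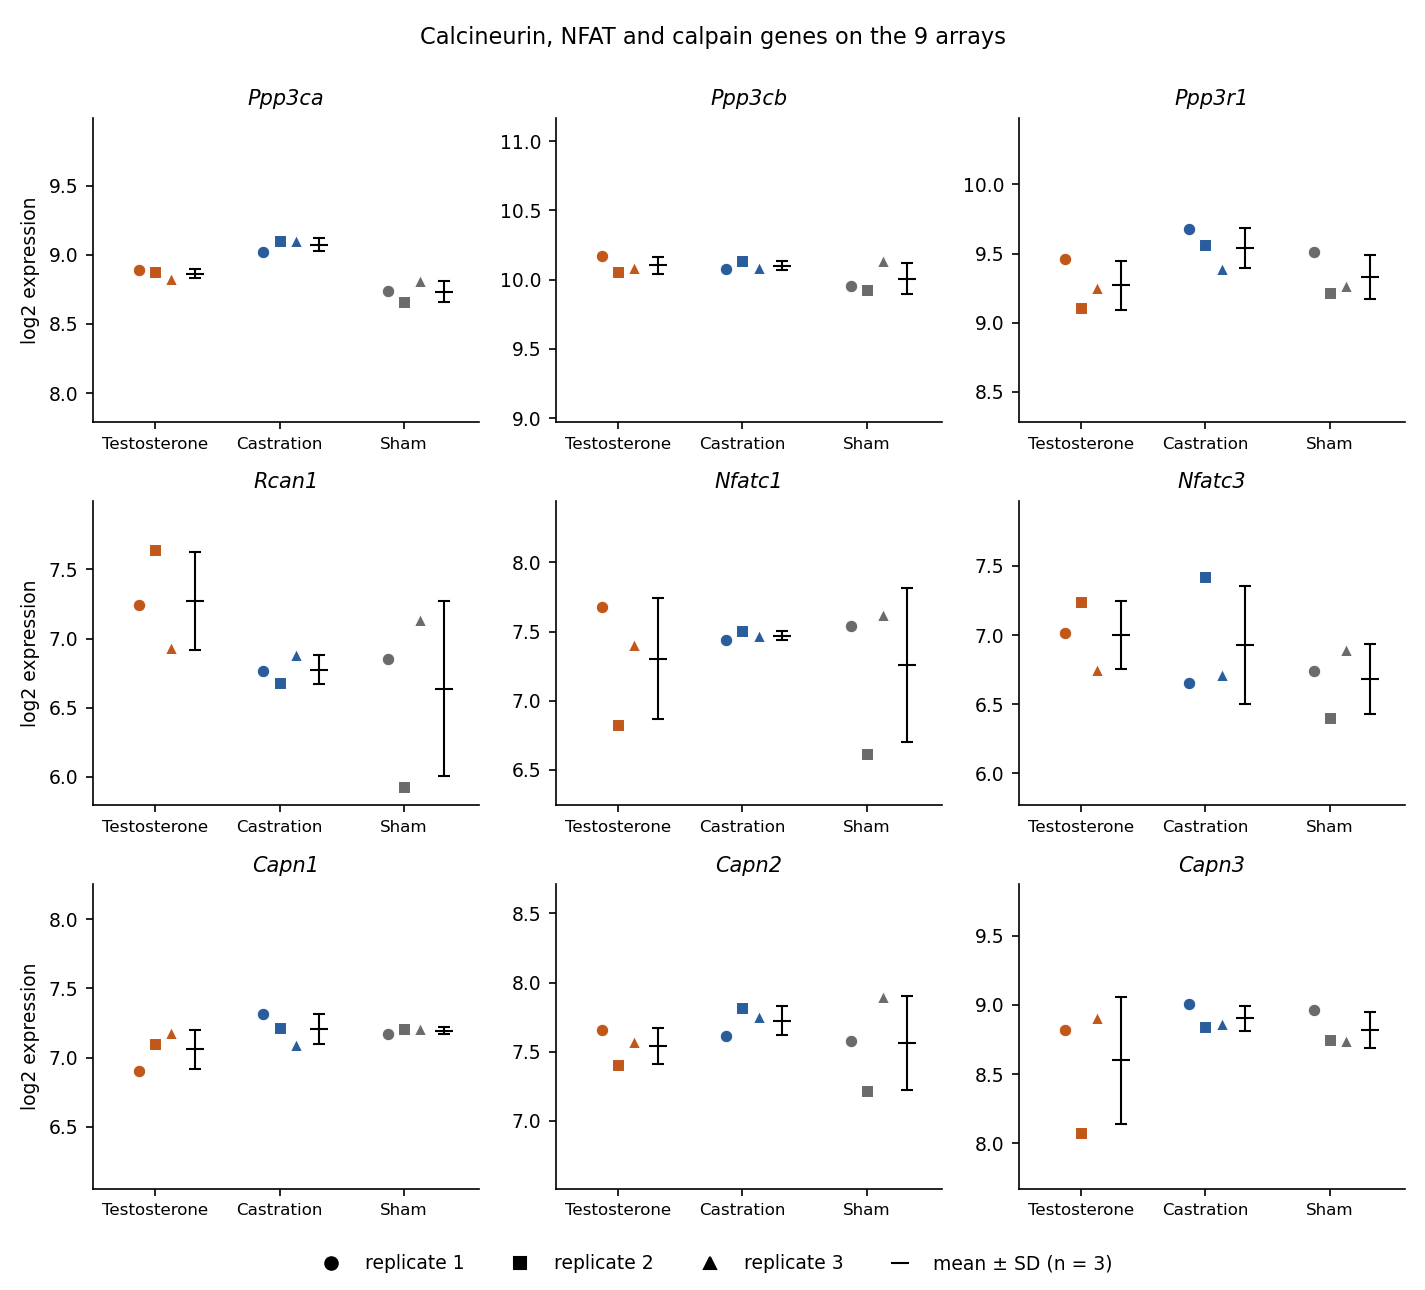
Log2 expression of the 9 genes (vertical axis, each panel spanning the same width) on each array of the Testosterone, Castration and Sham groups; symbols mark the replicate number and the black bar the mean ± SD (n = 3). Ppp3ca lies between 9.02 and 9.10 on the Castration arrays, above every other array, while replicate 2 of Testosterone or Sham sets much of the spread of Rcan1, Nfatc1, Capn2 and Capn3.

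Ppp3ca, on mouse chromosome 3, encodes the alpha form of the catalytic subunit and was read by 3 probe sets. The brightest, 1438478_a_at, stood at 8.89, 8.88 and 8.83 on the Testosterone arrays, at 9.02, 9.10 and 9.10 on the Castration arrays, and at 8.73, 8.66 and 8.81 on the Sham arrays. The 3 groups did not overlap on this probe set: Castration was highest, Testosterone lay between and Sham was lowest. Ppp3ca averaged 9.07 ± 0.05 in Castration and 8.73 ± 0.07 in Sham (SD, n = 3 each), a difference of 0.34 (SE 0.07, 95% interval 0.17 to 0.51, adjusted p = 0.512), which ranked 49 of 18193 genes by p. Groups without overlap in this direction made up 5.17% of all genes. With testosterone it averaged 8.86 ± 0.03, which was −0.21 relative to Castration (SE 0.07, interval −0.38 to −0.04, adjusted p = 1), and 4.79% of genes did not overlap in this direction. Against Sham, testosterone gave 0.13 (interval −0.04 to 0.30, adjusted p = 0.78), with 2.83% of genes not overlapping in this direction. The F test over the 3 groups ranked Ppp3ca 98 of 18193 (adjusted p = 0.821).

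The other probe sets of Ppp3ca shared the sign of both differences with Castration. They did not repeat the separation of Testosterone from Sham, since these arrays overlapped on both. Testosterone against sham was −0.19 on 1426401_at, the opposite sign, and 0.03 on 1452056_s_at, beside 0.13 on the brightest. On the 7 arrays these were 0.07, 0.13 and 0.09, all of the same sign. On 1426401_at the Testosterone arrays stood at 8.72, 7.56 and 8.44, the Castration arrays at 8.95, 8.93 and 8.94, and the Sham arrays at 8.42, 8.27 and 8.61. Castration again lay above both groups without overlap, by 0.51 over Sham (adjusted p = 0.883 over all probe sets) and with testosterone at −0.70 relative to Castration (adjusted p = 1), which was −0.36 on the 7 arrays. Among all probe sets, 4.26% did not overlap in the first of these directions and 4.09% in the second. On 1452056_s_at the Testosterone arrays stood at 8.21, 7.34 and 7.97, the Castration arrays at 8.21, 8.51 and 8.10, and the Sham arrays at 7.74, 7.53 and 8.16, so these groups overlapped. Its differences were 0.46 for castration against sham and −0.43 for testosterone against castration, which were 0.32 and −0.18 on the 7 arrays.

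Without Sham 2 and Testosterone 2 the differences of Ppp3ca were 0.30 (adjusted p = 0.448) for castration against sham and −0.22 (adjusted p = 0.705) for testosterone against castration. With limma array weights, which give outlying arrays less say in the fit, the first was 0.32 with an adjusted p of 0.0316. Those weights were 4.61 for Sham 1 and 0.16 for Sham 2, so the comparison then rests mostly on 1 Sham array.

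Markers of other cell types are given beside Ppp3ca, without a test. The score was 0.09 to 0.34 in Castration for all 10 endothelial markers, against −0.16 to 0.03 in Testosterone and −0.36 to 0.02 in Sham. Their mean level was 5.73 to 5.91 in Testosterone, 5.98 to 6.23 in Castration and 5.53 to 5.91 in Sham. All 10 fibroblast and matrix markers were measured, and their mean level was 7.69 to 8.08 in Testosterone, 8.39 to 8.62 in Castration and 7.57 to 8.47 in Sham, so Castration lay above Testosterone and overlapped Sham. The 7 tendon markers showed the same order, at 5.96 to 6.30 in Testosterone, 6.43 to 6.69 in Castration and 5.45 to 6.46 in Sham. Of 11 adipocyte markers 9 were measured, at 7.05 to 8.37 in Testosterone, 6.98 to 7.05 in Castration and 7.23 to 8.17 in Sham, so Castration was lowest, by less than 0.01 below the lowest Testosterone array. No marker is listed at 0 on any array, but the lowest deposited value was 2.215, so this does not show that each was detected. The part of these markers in the Ppp3ca result was not tested.

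The beta form Ppp3cb, on chromosome 14, was read by 5 probe sets. The brightest, 1428473_at, stood at 10.17, 10.05 and 10.08 with testosterone, at 10.08, 10.14 and 10.08 after castration and at 9.96, 9.93 and 10.14 in Sham. These arrays overlapped in all 3 comparisons. Ppp3cb differed by 0.09 for castration against sham (interval −0.10 to 0.28) and by 0.00 for testosterone against castration (interval −0.18 to 0.19). Its next probe set, 1427468_at, was widely spread, at 8.43, 6.22 and 7.96 in Testosterone, 8.14, 7.66 and 8.22 in Castration, and 8.23, 7.52 and 7.27 in Sham. It gave 0.33 for castration against sham (interval −0.85 to 1.52), about the size measured for Ppp3ca, and −0.47 for testosterone against castration, which was 0.19 on the 7 arrays. The remaining 3 probe sets of Ppp3cb lay between 2.49 and 3.87, near the array medians.

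Ppp3r1, on chromosome 11, encodes the regulatory B subunit. Its probe set 1433591_at stood at 9.46, 9.11 and 9.25 in Testosterone, at 9.68, 9.56 and 9.39 in Castration and at 9.51, 9.22 and 9.26 in Sham. The Castration mean was the highest, but the arrays of each pair of groups overlapped. The differences were 0.21 for castration against sham (interval −0.08 to 0.50, adjusted p = 0.838) and −0.27 for testosterone against castration (interval −0.56 to 0.02, adjusted p = 1), the same signs as Ppp3ca. Its other probe set and the 1 shared with Wdr92 lay between 2.48 and 2.99, below every array median.

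Rcan1, on chromosome 16, encodes regulator of calcineurin, a protein that binds calcineurin and restrains it. The gene has a distal and an internal start site, and the transcript from the internal one is known as a target of NFAT, so its promoter is shown. The 250 bases before each start site in RefSeq (GRCm38.p6, minus strand) are printed here 5′ to 3′ with the NFAT core GGAAA, or its reverse complement TTTCC, in capitals, and Ppp3cb is added because its window held as many matches.
Rcan1 internal start, chr16:92400079-92400328, minus strand: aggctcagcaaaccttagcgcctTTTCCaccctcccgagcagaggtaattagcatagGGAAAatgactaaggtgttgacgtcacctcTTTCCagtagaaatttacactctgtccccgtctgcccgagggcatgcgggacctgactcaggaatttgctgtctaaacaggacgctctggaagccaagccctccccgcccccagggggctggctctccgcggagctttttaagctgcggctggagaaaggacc
Rcan1 distal start, chr16:92466170-92466419, minus strand: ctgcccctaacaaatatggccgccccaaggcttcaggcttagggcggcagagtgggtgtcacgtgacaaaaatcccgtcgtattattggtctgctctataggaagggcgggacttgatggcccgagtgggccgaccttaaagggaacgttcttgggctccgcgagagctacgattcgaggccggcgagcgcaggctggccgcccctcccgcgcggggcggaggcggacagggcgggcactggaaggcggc
Ppp3cb, chr14:20546574-20546823, minus strand: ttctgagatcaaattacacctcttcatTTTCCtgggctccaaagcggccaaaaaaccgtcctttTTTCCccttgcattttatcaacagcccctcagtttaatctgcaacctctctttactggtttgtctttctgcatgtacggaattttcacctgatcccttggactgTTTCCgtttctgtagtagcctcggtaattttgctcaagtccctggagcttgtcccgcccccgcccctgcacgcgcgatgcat
The internal Rcan1 window held 3 matches, at 227, 193 and 163 bases before the start counted to the match's first base, and the distal window held 0. Ppp3cb held 3, at 223, 186 and 82 bases. Over 32851 promoter windows of this length, 55.6% held at least 1 match on either strand and 6.39% held 3 or more. Windows were listed for 7 of the 9 genes, 11 in all, and 6 of the 11 held the core. The androgen receptor hexamer AGAACA, or TGTTCT on the other strand, was found in 0 of the 11, against 16.1% of all windows. These matches describe letters in a window and no binding.

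On the probe set 1416600_a_at, Rcan1 stood at 7.24, 7.64 and 6.93 with testosterone, at 6.77, 6.68 and 6.88 after castration and at 6.85, 5.93 and 7.14 in Sham. The Testosterone arrays lay above the Castration arrays without overlap, with a gap of less than 0.1 between the nearest 2, and both overlapped Sham. Rcan1 differed by 0.50 for testosterone against castration (SE 0.30, interval −0.18 to 1.17, adjusted p = 1), where 4.22% of all genes did not overlap in this direction. It differed by 0.63 for testosterone against sham (interval −0.04 to 1.31, adjusted p = 0.78) and by 0.14 for castration against sham (adjusted p = 0.923). On the 7 arrays these became 0.31 (adjusted p = 0.839), 0.10 (adjusted p = 0.998) and −0.22 (adjusted p = 0.967), so the sign of castration against sham depended on Sham 2.

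The other probe set of Rcan1, 1416601_a_at, had the opposite sign with testosterone. It stood at 3.45, 2.79 and 3.36 in Testosterone, 3.93, 3.24 and 3.61 in Castration and 4.10, 3.17 and 3.33 in Sham, all near the array medians. Its difference was −0.40 for testosterone against castration (interval −1.05 to 0.25), and −0.19 on the 7 arrays. The sources used here do not say which start site a probe set reads, so the internal and distal transcripts of Rcan1 are not separated.

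**Figure D2:**
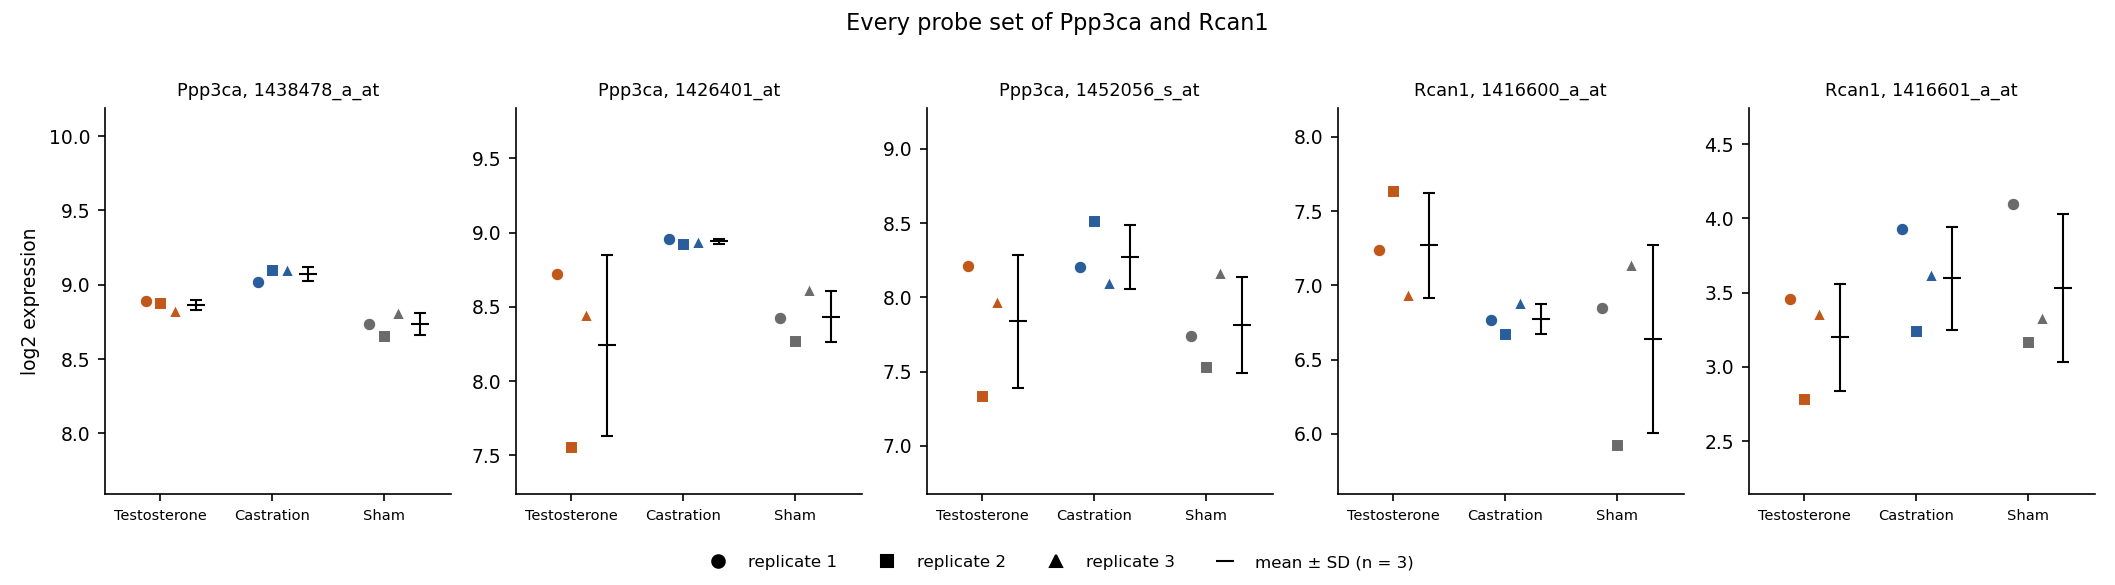
Log2 expression (vertical axis, same width in each panel) of every probe set of Ppp3ca and Rcan1 on the Testosterone, Castration and Sham arrays, with mean ± SD (n = 3). Castration exceeds both groups without overlap on 2 of the 3 Ppp3ca probe sets, and the Rcan1 probe sets differ in sign between Testosterone and Castration, at 0.50 and −0.40.

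Of the NFAT factors, Nfatc1 is the isoform tied to calcineurin activity in fibre type control, and Nfatc3 is a second calcineurin-dependent factor expressed in muscle. Nfatc1, on chromosome 18, stood at 7.68, 6.82 and 7.40 in Testosterone, at 7.44, 7.50 and 7.47 in Castration and at 7.54, 6.62 and 7.62 in Sham on probe set 1428479_at. The Castration arrays spanned less than 0.1, while Testosterone 2 and Sham 2 lay lowest. Nfatc1 differed by −0.17 for testosterone against castration (adjusted p = 1) and by 0.21 for castration against sham (adjusted p = 0.877), and on the 7 arrays these were 0.07 and −0.11, each with the opposite sign. Its remaining 4 probe sets lay between 2.74 and 4.15.

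Nfatc3, on chromosome 8, stood at 7.01, 7.24 and 6.75 in Testosterone, at 6.65, 7.42 and 6.71 in Castration and at 6.74, 6.40 and 6.90 in Sham on 1419976_s_at. The groups overlapped, and Castration 2 was the highest of all arrays. The difference of 0.25 for castration against sham (interval −0.27 to 0.76, adjusted p = 0.843) became 0.00 without Castration 2. The other probe set, 1452497_a_at, read 6.80, 6.07 and 5.67 in Testosterone, 6.11, 6.13 and 6.07 in Castration and 6.07, 4.92 and 5.70 in Sham, with a difference of 0.54 for castration against sham (adjusted p = 0.883 over all probe sets) and 0.22 on the 7 arrays.

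Among the calpains, Capn1, on chromosome 19, encodes the large subunit of mu-calpain. It stood at 6.90, 7.10 and 7.17 in Testosterone, 7.31, 7.21 and 7.09 in Castration and 7.17, 7.21 and 7.21 in Sham on 1417228_at. Its groups overlapped, and castration against sham gave 0.01 (interval −0.21 to 0.23). On its other probe set, 1417229_at, that difference was −0.16, and −0.28 on the 7 arrays. The difference of Capn1 for testosterone against castration was −0.15 (interval −0.36 to 0.07, adjusted p = 1), and its other probe set gave −0.24, which turned to 0.08 on the 7 arrays.

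Capn2, on chromosome 1, encodes the large subunit of m-calpain and had 1 probe set, 1416257_at. It read 7.66, 7.40 and 7.57 in Testosterone, 7.61, 7.82 and 7.75 in Castration and 7.58, 7.22 and 7.90 in Sham. The Sham arrays enclosed all others, from Sham 2 at the low end to Sham 3 at the high end. Capn2 differed by −0.18 for testosterone against castration (adjusted p = 1) and by 0.16 for castration against sham (adjusted p = 0.85), and castration against sham gave −0.01 on the 7 arrays.

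Capn3, the muscle calpain, on chromosome 2, stood at 8.82, 8.07 and 8.91 in Testosterone, at 9.01, 8.84 and 8.86 in Castration and at 8.97, 8.74 and 8.74 in Sham on 1426043_a_at. Testosterone 2 lay lowest of all 9 arrays, and the difference of −0.30 for testosterone against castration (interval −0.76 to 0.15, adjusted p = 1) became −0.04 on the 7 arrays. On the other probe set of Capn3, 1433681_x_at, the Testosterone arrays read 8.35, 8.35 and 8.29, the Castration arrays 8.38, 8.58 and 8.37 and the Sham arrays 8.31, 7.88 and 8.35. The Castration arrays lay above both other groups there, with a gap of less than 0.03 to each. The differences were −0.11 for testosterone against castration and 0.26 for castration against sham (adjusted p = 0.883 over all probe sets), the second of which was 0.11 on the 7 arrays. The suffix of this probe set marks possible cross-hybridisation, so it is a less certain reading of Capn3.

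**Figure D3:**
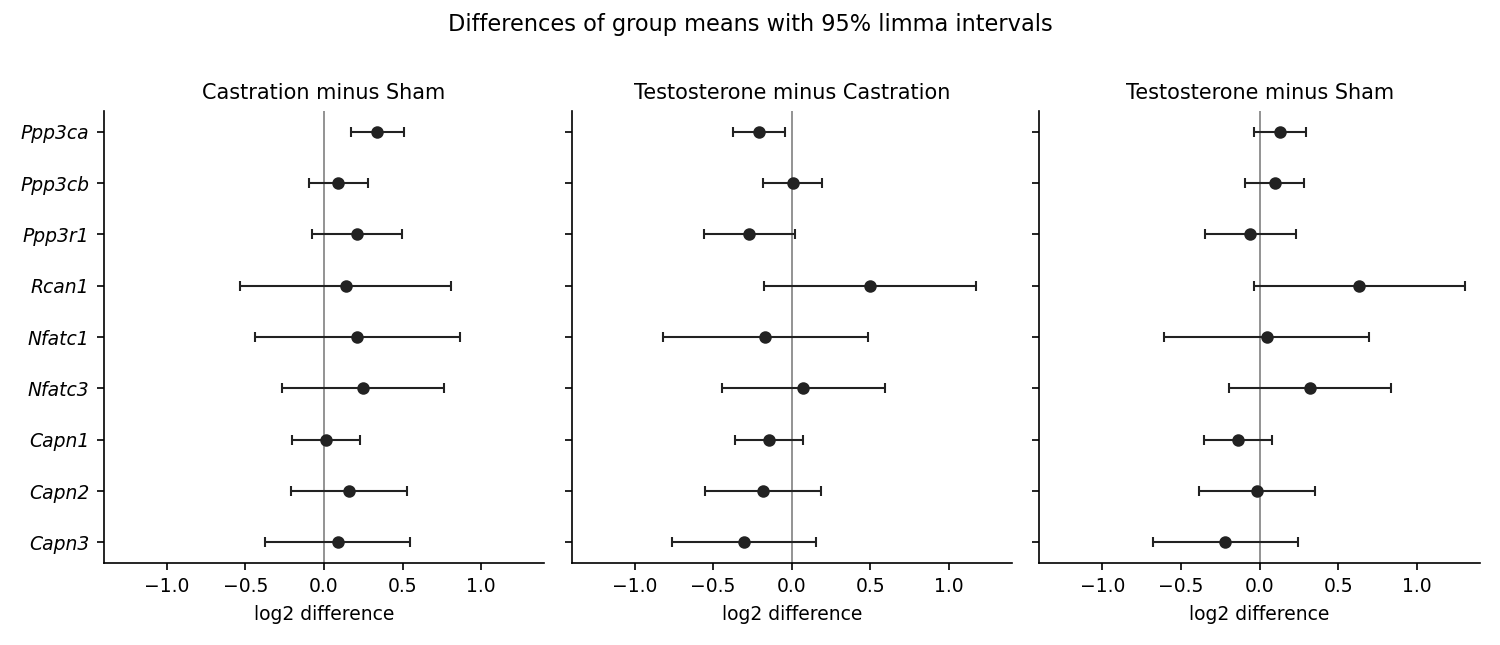
Differences of group means on the log2 scale (horizontal axis) for the 9 genes in the 3 comparisons, with 95% intervals from the limma fit on 9 arrays. Only the intervals of Ppp3ca for castration minus sham (0.17 to 0.51) and testosterone minus castration (−0.38 to −0.04) leave out 0.

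Counted over the set, 9 of 9 genes had a higher mean in Castration than in Sham (median difference 0.16), beside 52.9% of all genes (median 0.01). On the 7 arrays 6 of 9 did, with a median of 0.05 beside 0.00 for all genes, so 3 of these signs, those of Rcan1, Nfatc1 and Capn2, were not kept without Sham 2. The share over all genes is not matched for signal level, since the 9 genes averaged 6.87 to 10.07. Among the 4049 genes with a mean log2 above 6, Sham 2 was the lowest Sham array in 81.2%. The 9 of 9 is therefore not shown to be particular to this set. For testosterone against castration 3 of 9 were higher and 6 lower (median −0.17), beside 48.3% of all genes higher, and the median was −0.04 on the 7 arrays. For testosterone against sham 5 of 9 were higher (median 0.04), beside 52.1% of all genes. Of the 24 probe sets listed to 1 gene, 3 lay above Sham without overlap after castration and 0 below it, beside 4.26% and 3.71% of all probe sets. With testosterone 1 lay above and 3 below Castration, beside 3.85% and 4.09%, and 1 lay above and 0 below Sham, beside 3.11% and 3.71%. The 3 above Sham after castration and the 3 below Castration were the same probe sets. They were 1438478_a_at and 1426401_at of Ppp3ca and 1433681_x_at of Capn3. Probe sets of 1 gene are not independent readings. Of the genes themselves, 0 of 9 lay below Sham without overlap after castration or with testosterone, beside 3.72% and 3.64% of all genes. The 3 comparisons share arrays, so their counts are not independent of each other.

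The other genes of these routes were taken from 6 lists. Adjusted over all genes, 0 members of any list passed in any comparison. Of 20 further calcineurin subunits and regulators 15 had a probe set of their own. Between castration and sham 7 were higher and 8 lower (median 0.00). On the 7 arrays 2 were higher and 13 lower (median −0.08), beside 51.5% of all genes higher. Myoz1, calsarcin-2, a Z-disc protein that binds calcineurin, read 12.53, 12.53 and 12.61 in Castration and 12.72, 12.80 and 12.74 in Sham, without overlap (difference −0.20, adjusted p = 0.838). Bcl2, an apoptosis inhibitor that can bind calcineurin, differed by −0.31 there (3 of its 5 probe sets shared this sign). With testosterone against castration 9 were higher and 6 lower (median 0.08), with Bcl2 at 0.52 (adjusted p = 0.984) and Cib1, a calcium-binding protein, at 0.29, a sign that 1 of its 2 probe sets carried. Against sham 7 were higher and 8 lower (median −0.01), with the kinase Dyrk2 at 0.33 and Cib1 at 0.24 (1 of its 2 probe sets). On the 7 arrays Cib1 was at 0.16 against castration and 0.15 against sham. Both Bcl2, at 3.48 to 4.47 over the 9 arrays, and Cib1, at 3.87 to 4.57, were low, not far above the array medians.

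All 21 NFAT factors, NFAT kinases and partners on the list were measured. After castration against sham 11 were higher and 10 lower (median 0.07). Csnk1d, casein kinase 1 delta, differed by −0.44 (adjusted p = 0.838), but only 2 of its 5 probe sets shared that sign, and it was −0.29 on the 7 arrays. Nfatc2ip, a protein that interacts with Nfatc2, differed by 0.34, and by 0.20 on the 7 arrays. With testosterone against castration 13 were higher and 8 lower (median 0.13). Nfatc2 averaged 5.51 ± 0.39 in Testosterone and 5.03 ± 0.12 in Castration (SD, n = 3 each; difference 0.48), a sign that 1 of its 6 probe sets carried, and 0.26 on the 7 arrays. Mef2d, a muscle transcription factor that works with calcineurin, differed by 0.28, a sign that 1 of its 3 probe sets carried, and their mean gave 0.04. Against sham 14 were higher and 7 lower (median 0.07), with Nfatc2ip at 0.52 (1 of its 2 probe sets) and Nfatc2 at 0.42 (2 of its 6 probe sets), and on the 7 arrays at 0.34 and 0.23. On the 7 arrays the list had 17 higher and 4 lower for testosterone against castration (median 0.08), beside 48.4% of all genes higher. For testosterone against sham it had 18 higher and 3 lower (median 0.09), beside 51% of all genes higher. For castration against sham it had 11 higher and 10 lower (median 0.03).

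The 13 further calpain family genes and calpastatin were all measured, and their medians were −0.03 for castration against sham (6 higher, 7 lower), −0.02 for testosterone against castration (6 higher, 7 lower) and −0.03 for testosterone against sham (4 higher, 9 lower). Capn11, a calpain known from testis, read 3.69, 3.61 and 3.72 in Castration and 4.04, 4.55 and 3.78 in Sham (difference −0.45, adjusted p = 0.838), and Capn5, a calpain without the calmodulin-like domain, differed by −0.24. Without Sham 2 these were −0.24 for Capn11 and −0.04 for Capn5. Both lie near the array medians. Capn5 and Capn10 differed by −0.24 and 0.13 for testosterone against castration, each a sign that 1 of its 2 probe sets carried. Capn10 read 3.38 to 3.68, also near the array medians. Capn5 and Capn11 differed by −0.48 and −0.44 for testosterone against sham, which were −0.26 and −0.25 on the 7 arrays. The list itself had 7 higher and 6 lower there on the 7 arrays (median 0.01). Capns1, the small subunit shared by Capn1 and Capn2, averaged 9.15 ± 0.10 in Testosterone, 9.21 ± 0.08 in Castration and 9.18 ± 0.24 in Sham (SD, n = 3 each). Cast, the calpain inhibitor calpastatin, averaged 6.83 ± 0.34 in Testosterone, 6.89 ± 0.32 in Castration and 6.49 ± 0.61 in Sham. Capns1 and Cast are named here after their values were seen, for their direct role with Capn1 and Capn2.

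Of 19 calpain substrates and titin-bound partners, 12 were higher and 7 lower after castration against sham (median 0.04). Dysf, dysferlin, a membrane repair protein that calpains cleave, read 6.83, 6.85 and 6.88 in Testosterone, 6.86, 6.87 and 6.80 in Castration and 6.34, 6.29 and 6.69 in Sham. Both castrated groups lay above Sham without overlap, by 0.41 with testosterone (adjusted p = 0.78) and 0.40 without (adjusted p = 0.787). Of all genes, 2.83% and 5.17% lay above Sham without overlap in these comparisons. With array weights castration against sham gave Dysf 0.46 at an adjusted p of 0.0227, and on the 7 arrays 0.33 at 0.73. With those weights 174 genes passed this comparison, which then rests mostly on Sham 1 among the Sham arrays. Ttn, titin, which anchors Capn3 in the sarcomere, differed from Sham by 0.15 with testosterone and by 0.14 after castration, each without overlap and with the same sign in all 6 of its probe sets. For testosterone against castration 10 were higher and 9 lower (median 0.01), with Des, desmin, at 0.24 (1 of its 2 probe sets) and Tln1, talin, at −0.30 (2 of its 3), which were 0.16 and −0.19 on the 7 arrays. For testosterone against sham 10 were higher and 9 lower (median 0.01).

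Slow fibre genes, the programme tied to calcineurin, were higher in 12 of 13 for castration against sham (median 0.19), in 10 of 13 for testosterone against castration (median 0.13) and in 11 of 13 for testosterone against sham (median 0.46). On the 7 arrays the medians were 0.05, −0.04 and 0.00, with 9, 4 and 7 of 13 higher. Ppargc1a, the coactivator PGC-1 alpha, read 8.33, 8.35 and 7.88 in Testosterone, 7.60, 7.91 and 7.14 in Castration and 7.31, 6.20 and 6.80 in Sham. Testosterone lay above Sham without overlap, by 1.42 (SE 0.29, adjusted p = 0.78) and by 1.05 on the 7 arrays, with the same sign in all 5 of its probe sets. Ppargc1a differed by 0.78 for castration against sham (0.50 without Sham 2) and by 0.63 for testosterone against castration. Casq2, the cardiac and slow fibre calsequestrin, differed by 0.87 for castration against sham, and by 0.54 without Sham 2. Myh7b, a slow-type myosin, differed by −0.32 and −0.23 for testosterone against castration and against sham, at low levels of 3.80 to 4.29 over the 9 arrays.

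Of 15 calcium store and entry genes 14 were measured, 12 of them higher after castration against sham (median 0.07), 6 with testosterone against castration (median −0.01) and 7 with testosterone against sham (median 0.03). Cacnb1, the beta subunit of the muscle calcium channel, read 8.73, 8.39 and 8.38 in Testosterone, 8.91, 9.09 and 9.05 in Castration and 8.49, 8.38 and 8.66 in Sham. Castration lay above both groups without overlap, as it did for Ppp3ca: Cacnb1 differed by −0.51 for testosterone against castration (adjusted p = 0.564) and by 0.50 for castration against sham (adjusted p = 0.673), with 3 of 4 probe sets sharing each sign. Cacna1s, the pore subunit of the same channel, read 10.44, 10.17 and 10.18 in Testosterone, 10.55, 10.45 and 10.68 in Castration and 10.21, 10.45 and 10.30 in Sham, and differed by −0.30 and 0.24 in these comparisons. Orai1, the store-operated entry channel, and Jph2, junctophilin 2, differed by 0.38 and 0.21 for testosterone against sham, neither passing, and by 0.07 and 0.10 on the 7 arrays. The sign of Jph2 was carried by 1 of its 2 probe sets.

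**Figure D4:**
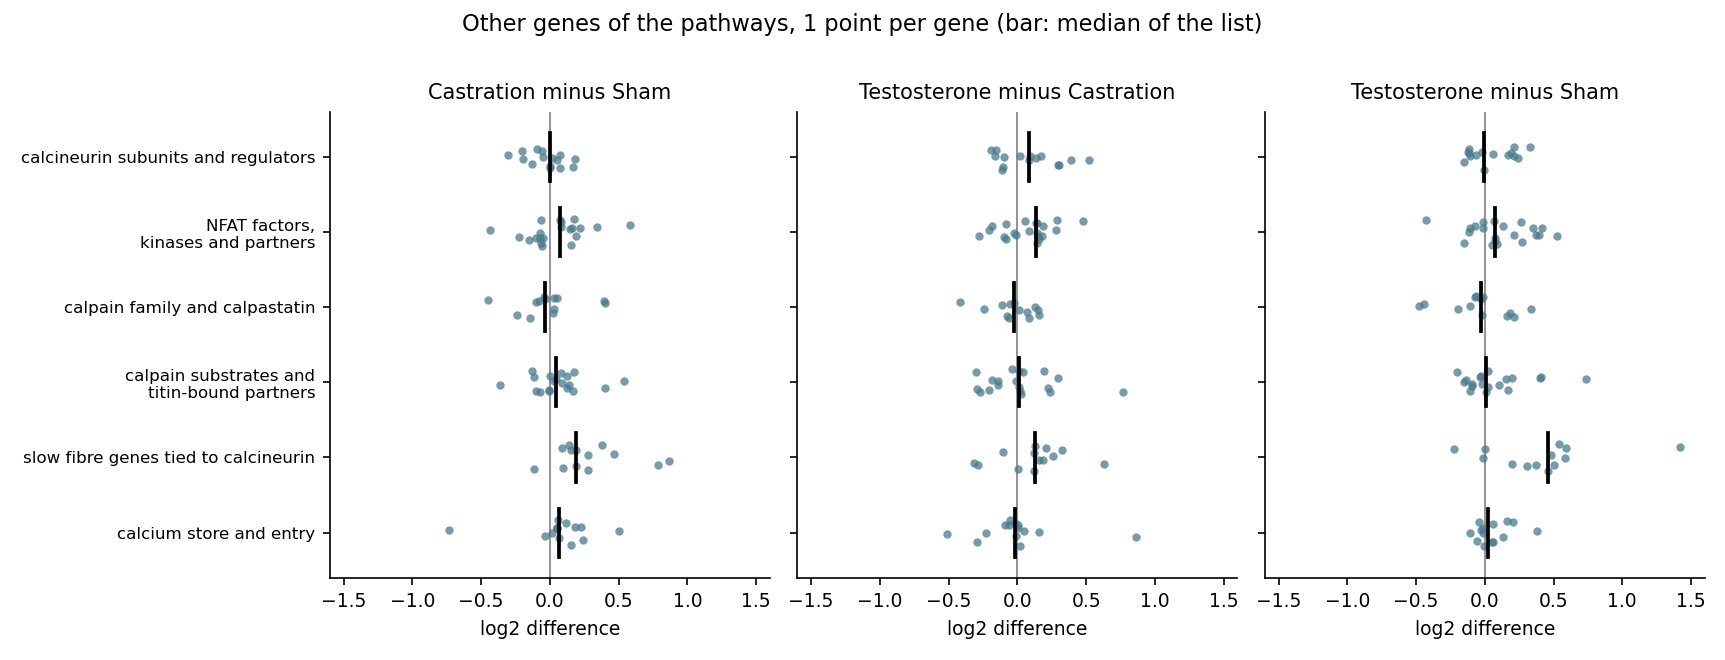
Log2 differences (horizontal axis) of the other genes of 6 pathway lists in the 3 comparisons on 9 arrays, 1 point per gene with vertical jitter within a list, and the list's median as a bar. The slow fibre list has medians of 0.19, 0.13 and 0.46, which are 0.05, −0.04 and 0.00 on the 7 arrays.

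The genes whose levels followed Ppp3ca most closely over the 9 arrays were Sypl2, a membrane protein of the muscle triad, with a Pearson r of 0.963, Lman2l, a cargo receptor of the secretory route (0.960), and C2cd2 (0.956). Without Sham 2 and Testosterone 2 these were 0.950, 0.990 and 0.945. Sypl2 read 9.69, 9.66 and 9.56 in Testosterone, 9.81, 9.88 and 9.89 in Castration and 9.58, 9.43 and 9.69 in Sham. For Rcan1 the closest were Hspa5, the endoplasmic reticulum chaperone BiP (0.982), Prkra (0.975) and Myh14 (0.975), at 0.909, 0.835 and 0.870 without the 2 arrays. Prkra read 3.10 to 3.89 over the 9 arrays, near the array medians. For Capn3 the closest were Acadm and Pdha1, enzymes of fatty acid and pyruvate oxidation (0.991 and 0.985), and Taf12 (0.983). Without the 2 arrays these were 0.960, 0.898 and 0.946. Each set was picked as the highest among all genes, and the arrays share their normalisation, so these values describe the arrays only.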

How the data were processed

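Gastrocnemius RNA of 3 groups was measured on 9 Affymetrix arrays. The deposited log2 values are RMA expression per probe set made by the authors, per the submitters' processing notes, which name no version. RMA quantile-normalises arrays together, which evens out a shift of a whole array. Differences between whole arrays remained all the same. Array medians ran from 3.15 to 3.26, with Sham 2 highest. Sham 2 was also the lowest Sham array in 81.2% of the 4049 genes with a mean log2 above 6. Values were used as deposited. Arrays have no read depth; their number limits the precision. All 9 value columns were mapped to samples by name.

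Of 45101 probe sets, 64 controls were left out; 34945 had 1 gene, 932 several, and 9160 were unlisted. Symbols were updated through gene identifiers (204 probe sets unmatched). The package limma 3.58.1, run in R 4.3.3, gave two-sided tests (lmFit, eBayes) on all arrays with group as the only term, and adjusted by Benjamini-Hochberg over 18193 genes, or 45037 probe sets, at 0.05. Intervals are 95% limma intervals. With 3 arrays against 3, an exact permutation test cannot go below p = 0.1, so none is given. The labels call the arrays of a group biological replicates, and the tests take them as independent of each other. The fit was tested on simulated data. Between any pair of arrays, no more than 5.78% of values were identical.

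Members and lists were chosen with earlier results of these data known. All members were named, and from each list the 2 genes with the smallest p per comparison, since none passed; for Ppp3ca, Rcan1 and Capn3 also the 3 best correlated genes. Genes without a probe set of their own are not analysed here. Alternatives were a replicate block, only the 2 groups compared, averaging probe sets per gene, leaving out suffixed probe sets, no dim genes (mean log2 under 3.58), array weights, median centring, quantile normalisation done again, variance moderation with a trend, robustly or not at all, leaving out Sham 2 and Testosterone 2 together, and each array in turn. Same-numbered arrays of different groups had correlations of their deviations from the group means between −0.49 and 0.27, so the numbers were not taken to pair samples. Promoter sequences come from RefSeq, GRCm38.p6.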

Additional observations from a re-analysis of the deposited data

How the results depend on the processing

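Over 21 alternatives, 516 of 558 values of the 9 genes kept their sign and their side of the threshold, 1 passed it (Ppp3ca with array weights, 0.32 for castration against sham) and 41 turned sign; of 749 values of list genes 741 kept both, 2 passed with array weights (Dysf 0.46 and Cacnb1 0.49, castration against sham) and 6 turned sign. The difference of Ppp3ca for castration against sham ranged from 0.24 to 0.51 (adjusted p 0.0316 to 0.999), and for testosterone against castration from −0.70 to −0.19 (adjusted p 0.485 to 1). The causes of the changes below were not tested.

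The replicate block gave 0 genes and 0 probe sets in each comparison and changed no call; the numbers are not known to pair arrays. Genes past the threshold, 0 in each comparison, numbered for castration against sham 2 with mean probe sets, 5 after renewed quantile normalisation, 2 with a trend, 174 with array weights, 18 on the 7 arrays and 0 to 7 leaving out 1 array (7 without Sham 2). For testosterone against castration they were 12 with only the 2 groups, 2 with mean probe sets, 9 without dim genes, 22 after quantile normalisation, 12 with a trend, 59 with weights, 27 on the 7 arrays and 0 to 28 leaving out 1 array (28 without Sham 2, 3 without Sham 1). For testosterone against sham they were 0 to 1 leaving out 1 array (1 without Testosterone 3). The F test gave 2 with mean probe sets, 11 after quantile normalisation, 7 with a trend, 99 with weights, 25 on the 7 arrays and 0 to 12 leaving out 1 array. Probe sets past the threshold for castration against sham were 1 after quantile normalisation, 3 with a trend, 2 without moderation, 32 with weights, 15 on the 7 arrays and 0 to 2 leaving out 1 array. For testosterone against castration they were 16, 7, 1, 42, 20 and 0 to 17 in the same settings, and for testosterone against sham 1 without moderation. At an unadjusted p under 0.05, limma gave 859, 633 and 791 genes in the 3 comparisons.

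Signs turned as follows. With the mean of probe sets, testosterone against sham gave Ppp3ca −0.012, Nfatc1 −0.046, Nfatc2 −0.0038 and Jph2 −0.22, testosterone against castration gave Ppp3cb −0.069 and Nfatc2 −0.024, and castration against sham gave Capn1 −0.075 and Csnk1d 0.088. Without suffixed probe sets Ppp3ca was −0.19 for testosterone against sham and Csnk1d 0.24 for castration against sham. Renewed quantile normalisation gave Rcan1 −0.071, Capn1 −0.16 and Capn3 −0.013 for castration against sham and Nfatc1 −0.14 for testosterone against sham, and median centring gave Capn2 0.014 for testosterone against sham. Array weights gave, for castration against sham, Rcan1 −0.080, Nfatc1 −0.058, Capn3 −0.0029 and Capn5 0.0084, and Nfatc1 −0.093 for testosterone against sham. On the 7 arrays castration against sham gave Rcan1 −0.22, Nfatc1 −0.11 and Capn2 −0.011, testosterone against castration Nfatc1 0.071 and Nfatc3 −0.044, and testosterone against sham Nfatc1 −0.036 and Capn3 0.010.

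Leaving out 1 array, castration against sham ranged from −0.22 (without Sham 2) to 0.39 for Rcan1, −0.11 (without Sham 2) to 0.39 for Nfatc1, −0.043 to 0.068 for Capn1 and −0.011 (without Sham 2) to 0.33 for Capn2. Testosterone against castration ranged from −0.030 to 0.030 for Ppp3cb, −0.36 to 0.071 for Nfatc1 and −0.063 to 0.32 for Nfatc3. Testosterone against sham ranged from −0.15 to 0.031 for Ppp3r1, −0.28 to 0.28 for Nfatc1, −0.19 to 0.15 for Capn2 and −0.37 to 0.046 for Capn3. Probe sets near the array medians limit what can be read of low transcripts.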

Other observations

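The 9 genes did not move as a unit over the arrays. Among their 36 pairs, Pearson r over the 9 arrays ran from −0.52 for Rcan1 and Capn3 to 0.86 for Nfatc1 and Capn2. Without Sham 2 and Testosterone 2 the first was −0.59 and the second 0.36. Ppp3ca had r of 0.61 with Ppp3cb and 0.50 with Ppp3r1, and 0.37 and 0.43 without the 2 arrays. Rcan1 and Ppp3ca had r of 0.23 on 9 arrays and −0.50 on 7.

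The calcineurin regulator Rcan2, a relative of Rcan1, averaged 8.63 ± 0.17 in Testosterone and 8.33 ± 0.05 in Castration (SD, n = 3 each), without overlap, and 8.42 ± 0.31 in Sham. Its difference of 0.31 for testosterone against castration did not pass (limma over all genes), and 4.22% of genes did not overlap in this direction. Rcan2 was named after its values were seen.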
